A study of Phaseolus vulgaris and Phaseolus lunatus with 12 samples.

Results

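The genes described as PGIP1 and as a hevein-like preproprotein in common bean (Phaseolus vulgaris) bear the names of defence proteins. Their transcripts were measured in leaves with and without the two-spotted spider mite Tetranychus urticae. These genes are 2 of the 29324 genes in the P. vulgaris count table. They were chosen by their adjusted p in infested against control leaves, as called genes that carry a product name, so their own values below describe the choice and carry no test. A search of all gene descriptions in that table for PGIP, polygalacturonase inhibitor or hevein found these 2 genes and 0 others. The second species of the study, lima bean (Phaseolus lunatus), took no part in the choice, and 8 of its 43997 genes matched the same words or the names of hevein's kin.

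Infested leaves carried 50 adult females of the London strain of the mite on each leaflet, and control leaves carried 0. All leaves were first true leaves, detached from plants 3 weeks old, and all were frozen 24 h after the start of infestation, so control leaves were detached leaves too. Growth was at 23 °C under light for 16 h and dark for 8 h a day. The P. vulgaris plants were of cultivar California Red Kidney and the P. lunatus plants of var. Peladilla. Each of the 4 groups held 3 libraries made from total RNA, and the labels do not say whether these came from separate plants, so p-values measure the spread between libraries as labelled. Total counts were 17264823 to 19343807 per P. vulgaris library and 13317991 to 17255676 per P. lunatus library. The leaf markers matched 1 gene in the P. vulgaris table, a chlorophyll a-b binding protein (PHAVU_001G000400g) at 22.6 to 25.0 CPM in infested and 23.6 to 28.6 CPM in control leaves, and the seed storage words matched 0.

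Polygalacturonase-inhibiting proteins (PGIPs) are leucine-rich repeat proteins of the plant cell wall. They bind polygalacturonases, the enzymes with which fungi and some insects cut the pectin that holds plant cells together, and in bean they form a clustered gene family. Hevein is a small chitin-binding protein first described from the latex of the rubber tree. Hevein-like preproproteins, the class 4 pathogenesis-related (PR-4) proteins, join a chitin-binding domain to a domain called Barwin, and the Arabidopsis gene of this kind is known to respond to pathogens and ethylene. Chitin is a structural polymer of fungal walls and of the cuticle of arthropods, mites included.

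The gene described as PGIP1 (PHAVU_009G1804000g) lies on the plus strand of chromosome 9 at 26521123 to 26521909, positions as the deposited table gives them, with no genome build named. Its length of 787 bases equals its span, so the table gives it as 1 uninterrupted stretch, and the table assigns it no domain family. Its description was projected from an Arabidopsis gene, and whether it is the PGIP1 of common bean was not tested. Below, PGIP1 alone means this described gene. It had 264, 260 and 276 counts in the 3 infested libraries, against 54, 49 and 46 in the control libraries. Scaled to CPM, the counts relative to the TMM-adjusted library size, these were 14.7, 15.0 and 15.2 CPM in infested leaves and 2.77, 2.81 and 2.62 CPM in control leaves. All 3 infested libraries stood above all 3 controls, the lowest infested value 5.25 times the highest control value.

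The libraries of each group lay close together for PGIP1. The gene was chosen by its adjusted p, which favours a small spread within groups, so this closeness is part of the choice. The mean was 15.0 ± 0.23 CPM in infested and 2.73 ± 0.098 CPM in control leaves (SD, n = 3 each), a ratio of 5.49, and the SD was 1.54% of the infested mean and 3.60% of the control mean. The log2 fold change of infested over control was 2.45 ± 0.17 (SE). It ranged over 2.42 to 2.48 when each library was left out in turn or the scaling, filter or model was changed.

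The hevein-like gene (PHAVU_006G102200g) lies on the plus strand of chromosome 6 at 21898967 to 21901131, with a length of 1141 bases within a span of 2165, and was likewise named from an Arabidopsis gene. It was counted far more often than PGIP1, with 6012, 5408 and 5685 counts in infested libraries, against 3507, 2009 and 2214 in control libraries. These were 336, 313 and 313 CPM in infested leaves and 180, 115 and 126 CPM in control leaves. The groups did not overlap, and the lowest infested library was at 1.74 times the highest control.

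For this gene the spread lay in the controls. The mean was 321 ± 13.2 CPM in infested and 140 ± 34.5 CPM in control leaves (SD, n = 3 each), a ratio of 2.28, with an SD of 4.13% of the infested mean and 24.6% of the control mean. Control library 1 was the high one, 0.38 above the control mean on the log2 CPM scale, whereas control libraries 2 and 3 were at −0.26 and −0.13. PGIP1 in control library 1 was within 0.02 of its own control mean. The log2 fold change of the hevein-like gene was 1.19 ± 0.15 (SE), and 1.41 without control library 1. Over all the alternatives it ranged over 1.07 to 1.41.

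Because reads of a whole leaf were counted, fewer cells of a type and less RNA per cell cannot be told apart in any of these values. As background for the counts below, edgeR's quasi-likelihood test (Benjamini-Hochberg adjustment) called 189 of 19360 tested P. vulgaris genes at an adjusted p below 0.05, which is 0.976%, with 0.935% called higher and 0.0413% lower in infested leaves. Infested libraries stood wholly above control libraries in 9.09% of the tested genes.

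**Figure D1:**
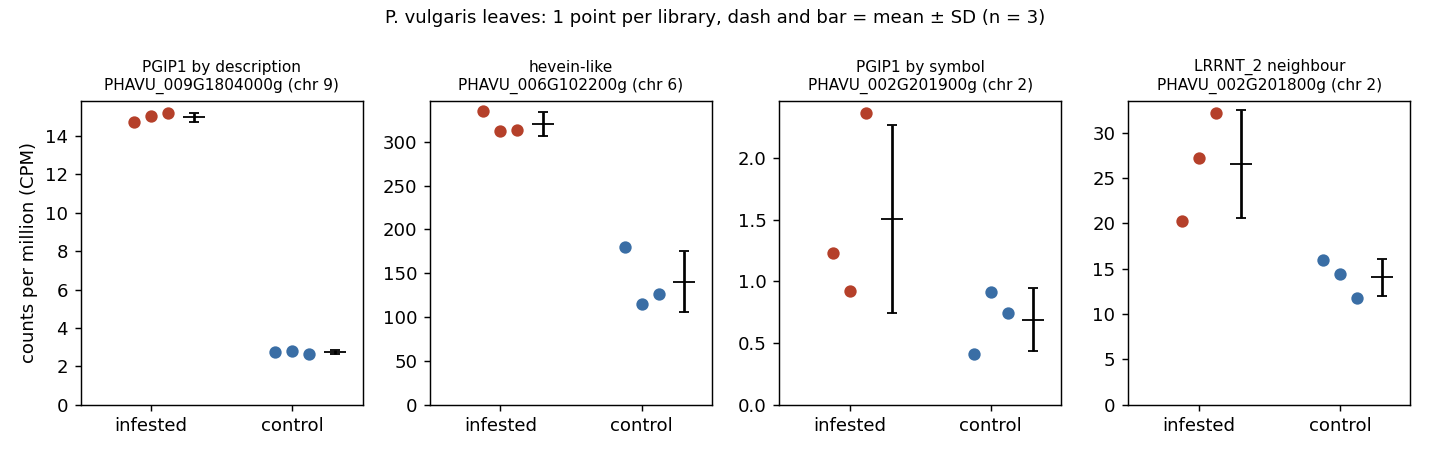
Transcript level in CPM (vertical axes, from 0) of 4 P. vulgaris genes in infested and control leaves, 1 point per library, with the mean ± SD (n = 3) beside the points. The 3 infested libraries of the gene described as PGIP1 sit at 14.7 to 15.2 CPM above controls at 2.62 to 2.81 CPM. The hevein-like gene has its widest spread in the controls. In both chromosome 2 genes the infested SD is larger relative to its mean (50.5% and 22.5%) than in the first 2 genes (1.54% and 4.13%). The first 2 genes were chosen by their adjusted p, which favours a small spread. The gene with the symbol PGIP1 had only 22, 16 and 43 counts in infested libraries.

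Per kilobase of gene length, the hevein-like gene was at 281 CPM per kb in infested and 123 in control leaves, above 98.5% (infested) and 95.6% (control) of the tested genes of the species. PGIP1 was at 19.1 CPM per kb in infested and 3.47 in control leaves, above 68.2% (infested) and 27.5% (control) of the tested genes. The hevein-like transcript was thus the more abundant of the pair in both groups, and the ranges of the 2 genes did not overlap in either (274 to 294 against 18.7 to 19.3 CPM per kb in infested leaves, 101 to 158 against 3.33 to 3.57 in control leaves).

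The symbol column of the table gives the name PGIP1 to another gene, and which of them is the PGIP1 of common bean was not tested. PHAVU_002G201900g lies on the minus strand of chromosome 2 at 36135965 to 36137164, carries the leucine-rich repeat N-terminal domain family LRRNT_2 that is typical of PGIPs, and is described only as a hypothetical protein, so the description search did not find it. It and its neighbours were examined after the annotation and their values were seen. Its counts were 22, 16 and 43 in infested libraries, against 8, 16 and 13 in control libraries, or 1.23, 0.925 and 2.37 CPM in infested and 0.410, 0.917 and 0.741 CPM in control leaves. Infested library 2 was level with control library 2, at a ratio of 1.01. The mean of 1.51 ± 0.76 CPM in infested and 0.689 ± 0.26 CPM in control leaves (SD, n = 3 each) gave a log2 fold change of 1.13 ± 0.55, which did not pass edgeR's test (adjusted p = 0.511).

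Within 50 kb of the chromosome 2 gene lie 6 genes, and 3 of them carry the same domain family. PHAVU_002G201800g, 16783 bases away, was the most counted of these, with 20.3, 27.2 and 32.2 CPM in infested and 15.9, 14.4 and 11.8 CPM in control leaves. Its groups did not overlap, with means of 26.6 ± 5.98 CPM in infested and 14.0 ± 2.09 CPM in control leaves (SD, n = 3 each). Its log2 fold change of 0.92 ± 0.18 narrowly missed the threshold in edgeR's test (adjusted p = 0.0586), and the adjusted p ranged over 0.00102 to 0.201 with the alternatives, 6 of which called it (among them library totals at 0.0498, no filter at 0.0292, DESeq2 at 0.00102, a robust fit at 0.0407 and the fit without infested library 1 at 0.0338).

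The remaining LRRNT_2 neighbours were near the limit of counting. PHAVU_002G201600g, 43870 bases away, had means of 1.75 CPM in infested and 0.819 CPM in control leaves (log2 fold change 1.09 ± 0.47, adjusted p = 0.456 in edgeR's test). PHAVU_002G201700g, 34884 bases away, had 1.36 CPM in infested and 0.705 CPM in control leaves (0.95 ± 0.51, adjusted p = 0.559). The summed level of the 4 LRRNT_2 genes was 24.6, 31.1 and 37.8 CPM in infested libraries, against 17.4, 17.6 and 13.8 CPM in control libraries, with no overlap, and most of it came from PHAVU_002G201800g. The 3 neighbours of other kinds gave no call. PHAVU_002G201500g had a log2 fold change of 0.15 ± 0.15 (adjusted p = 0.775) and the protein kinase gene PHAVU_002G202100g one of −0.04 ± 0.11 (adjusted p = 0.927), both in edgeR's test. The WRKY gene PHAVU_002G202000g, with 0 infested and 8 control counts in all, was too low to test.

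On length-scaled levels the 2 genes that carry the name PGIP1 stood apart. In infested leaves PGIP1 of chromosome 9 (18.7 to 19.3 CPM per kb) overlapped PHAVU_002G201800g (15.1 to 24.0) and lay far above the gene with the symbol PGIP1 (0.771 to 1.97). In control leaves the order was PHAVU_002G201800g (8.81 to 11.9 CPM per kb), then PGIP1 of chromosome 9 (3.33 to 3.57), then the gene with the symbol (0.342 to 0.765), with no overlap between them. How reads shared by near-identical PGIP copies were counted is not given in the sources used here. The split between copies is uncertain.

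Whether the listed PGIP1 gene stands in a cluster of its family could not be read from the labels. The gene itself and all 3 genes within 50 kb of it on chromosome 9 carry no domain family. Of these neighbours, 1 was expressed at a level that could be tested. That gene, PHAVU_009G180300g, lies 32895 bases away and had 18.3 ± 1.72 CPM in infested and 19.2 ± 1.13 CPM in control leaves (SD, n = 3 each; log2 fold change −0.07 ± 0.12, adjusted p = 0.880 in edgeR's test). The others, PHAVU_009G1804001g and PHAVU_009G180500g, had 0 counts in all 6 libraries. PHAVU_009G1804001g is only 66 bases long and lies 8622 bases away.

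The hevein-like gene stood in a denser stretch. Of 18 genes within 50 kb, 15 were tested and 0 were called by edgeR, against 0.976% of all tested genes. At that share, 0 calls among 15 genes do not set the neighbours apart. The log2 fold changes of the tested neighbours ran over −0.39 to 0.49. At an unadjusted p below 0.05 was PHAVU_006G101500g alone, at 0.38 ± 0.15 (adjusted p = 0.406). The nearest gene, IAA16 (PHAVU_006G102100g), of the family of auxin response repressors, lies 2478 bases away and had 63.2 ± 6.25 CPM in infested and 62.1 ± 2.58 CPM in control leaves (SD, n = 3 each; 0.02 ± 0.09, adjusted p = 0.951). On the other side PHAVU_006G102300g, 3607 bases away and with no name in the table, had 136 ± 36.9 CPM in infested and 108 ± 25.5 CPM in control leaves (0.33 ± 0.21, adjusted p = 0.636). The lowest fold change belonged to PHAVU_006G1024000g (−0.39 ± 0.22, adjusted p = 0.595) and the highest to PHAVU_006G103000g (0.49 ± 0.57, adjusted p = 0.809), which averaged about 1.01 CPM in infested and 0.716 CPM in control leaves. The remaining neighbours that could be tested lay between these.

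Lima bean has a like stretch on its chromosome 6, around a gene named as its wound-induced protein WIN2 (Pl06G0000217100.v1). The names or domain families Epimerase, bZIP_1, IAA16, SBDS, Pkinase and KH_1 occurred in the same order around both genes, 6 shared labels in all. IAA16 had its midpoint 5.02 kb before the hevein-like gene in P. vulgaris and 4.85 kb before the WIN2-named gene in P. lunatus, and KH_1 lay 53.1 kb and 52.0 kb after them. This is a description of positions, since no map of orthologs was used. The genes around the listed PGIP1 gene on chromosome 9 carry no name or domain family. Their labels could therefore not be compared with the surroundings of the PGIP gene on P. lunatus chromosome 9. The chromosome 2 gene with the symbol PGIP1 shared 2 labels, LRRNT_2 and WRKY, with the surroundings of Pl02G0000326800.v1.

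**Figure D2:**
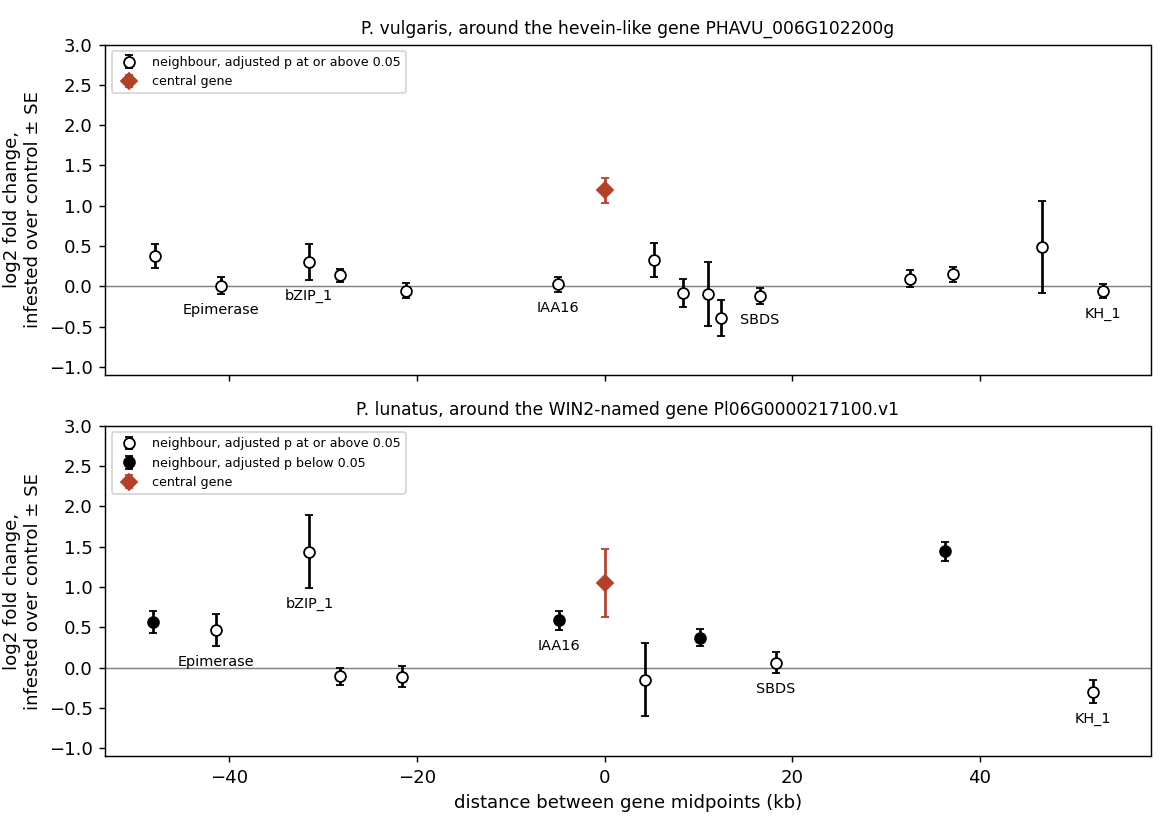
Log2 fold change of infested over control ± SE (vertical axis) of the tested genes around the hevein-like gene of P. vulgaris (upper panel) and the WIN2-named gene of P. lunatus (lower panel), by distance between gene midpoints in kb. The central gene is a diamond and filled circles are neighbours with an adjusted p below 0.05. Labels mark names found in the same order in both species. Filled are 0 of 15 P. vulgaris neighbours, where 0.976% of all tested genes were called. In P. lunatus 4 of 11 neighbours are filled, where 17.1% of all tested genes were called.

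In lima bean, 1 of the named genes was called and it was a PGIP. As background, edgeR called 3170 of 18523 tested P. lunatus genes, or 17.1%, and called 9.65% higher in infested leaves. Infested libraries stood wholly above control libraries in 19.7% of the tested genes, so a call or a gap between groups is far less rare in this species than in P. vulgaris. Of the 8 genes matched by name, 5 were named PGIP and 3 were named WIN or PR-4. The filter on low counts was passed by 6, and 1 of these was called. Beside the 17.1% of all tested genes, 1 call among 6 does not set the named genes apart. Photosynthesis marker genes moved with infestation in these libraries, with a summed level over 29 genes of 27630 to 50170 CPM in infested and 61650 to 75910 CPM in control leaves (16 of 29 called lower), and their part in the results below was not tested. Of 8 seed storage genes, 6 were at 0 counts in every library, and their sum was 0.388 to 1.33 CPM in infested and 0.869 to 4.51 CPM in control leaves.

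Pl09G0000257800.v1, whose best named match is the PGIP of pear, lies on the plus strand of chromosome 9 at 29885186 to 29893038 and carries LRRNT_2. It had 870, 719 and 1157 CPM in infested libraries, against 164, 144 and 228 CPM in control libraries. The groups were far apart, with the lowest infested library at 3.15 times the highest control. Means were 915 ± 222 CPM in infested and 179 ± 44.1 CPM in control leaves (SD, n = 3 each), a ratio of 5.13. The gene rose by 2.36 ± 0.23 on the log2 scale in edgeR's quasi-likelihood test (adjusted p = 0.000581), and it was called under all 14 alternatives, at 2.16 to 2.58 and an adjusted p of at most 0.00355. The short gene Pl09G0000257900.v1 on the other strand overlaps it and had 3 counts in infested and 0 in control leaves. Its 3 tested neighbours within 50 kb were not called, and the lowest of them was the RD22-named BURP gene Pl09G0000258200.v1 at −1.43 ± 0.45 (adjusted p = 0.0655).

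The PGIP2-named gene Pl05G0000007800.v1 (best match in Arabidopsis; chromosome 5, 563708 to 565162, minus strand) had 59.8, 67.1 and 68.9 CPM in infested libraries, against 60.0, 58.6 and 43.4 CPM in control libraries. The groups overlapped slightly at about 60 CPM, and the log2 fold change was 0.27 ± 0.14 (adjusted p = 0.218 in edgeR's test). The PGIP1-named gene Pl02G0000326800.v1, whose best match is PGIP1 of common bean (chromosome 2, 39175982 to 39177659, minus strand), had 19.9, 24.8 and 23.5 CPM in infested libraries, against 25.1, 22.1 and 14.2 CPM in control libraries. Its groups overlapped fully (0.15 ± 0.21, adjusted p = 0.672), and its sign was not fixed, since the log2 fold change ranged over −0.05 to 0.32 with the alternatives.

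Its neighbour Pl02G0000326700.v1, with the same best match and 9121 bases away (39165506 to 39166861), had 1, 1 and 2 counts in infested libraries and 0 in every control library, too few to test. Pl01G0000281800.v1, named after Arabidopsis PGIP1 (chromosome 1, 34929699 to 34930697, minus strand), was also low, with 5, 25 and 19 counts in infested libraries and 3, 11 and 3 in control libraries. Its range overlapped between groups, at 0.388 to 1.66 CPM in infested and 0.171 to 0.771 CPM in control leaves, and its log2 fold change of 1.60 ± 0.71 did not pass edgeR's test (adjusted p = 0.161).

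The chromosome 9 gene made up most of the PGIP-named transcript in lima bean. Its share of the summed CPM of the 5 PGIP-named genes was 91.6%, 88.5% and 92.5% in infested libraries, against 65.8%, 63.8% and 79.8% in control libraries. Per kilobase, it was at 811 CPM in infested and 158 in control leaves, followed by Pl05G0000007800.v1 at 44.9 in infested and 37.1 in control leaves. Pl02G0000326800.v1 was at 13.5 CPM per kb in infested and 12.2 in control leaves, and Pl01G0000281800.v1 at 1.15 in infested and 0.387 in control leaves. The ranges of neighbours in this order did not overlap in either group.

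The lima bean genes named WIN or PR-4 gave no call in edgeR's test, where 17.1% of all tested genes were called. So few genes do not set these names apart. The 2 called genes with a chitin recognition domain are endochitinases, given below. The WIN2-named gene Pl06G0000217100.v1 (best match in potato; chromosome 6, 26405315 to 26406030, plus strand) carries both a chitin recognition and a Barwin domain, the pair that defines a hevein-like preproprotein. It had 42.5, 127 and 145 CPM in infested libraries, against 51.8, 67.3 and 33.4 CPM in control libraries. Infested libraries 2 and 3 were above every control, but infested library 1 was below 2 of the 3. The means of 105 ± 54.8 CPM in infested and 50.8 ± 17 CPM in control leaves (SD, n = 3 each) gave a log2 fold change of 1.05 ± 0.42 (adjusted p = 0.127). Without infested library 1 it was 1.42 and called (adjusted p = 0.00813), and over all the alternatives the adjusted p ranged over 0.00813 to 0.376.

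The PR-4A-named gene Pl06G0000217200.v1 (best match in tobacco; 26409544 to 26410426), 3514 bases further along, has a Barwin domain without the chitin-binding part. It had 28.8, 35.0 and 15.0 CPM in infested libraries, against 17.8, 52.3 and 17.7 CPM in control libraries. The groups overlapped, with infested library 3 the lowest and control library 2 the highest of all 6, and a log2 fold change of −0.15 ± 0.45 (adjusted p = 0.858 in edgeR's test) that ranged over −0.42 to 0.56 with the alternatives. The WIN1-named Barwin gene Pl07G0000293900.v1 had 0 counts in all 6 libraries. Of the 11 tested neighbours of the WIN2-named gene, 4 were called higher by edgeR, against 9.65% of all tested P. lunatus genes. Among them were IAA16 (Pl06G0000217000.v1, 0.58 ± 0.12, adjusted p = 0.0156) and a WVD2-like 3 gene (Pl06G0000217700.v1, 1.44 ± 0.12, adjusted p = 0.000257).

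**Figure D3:**
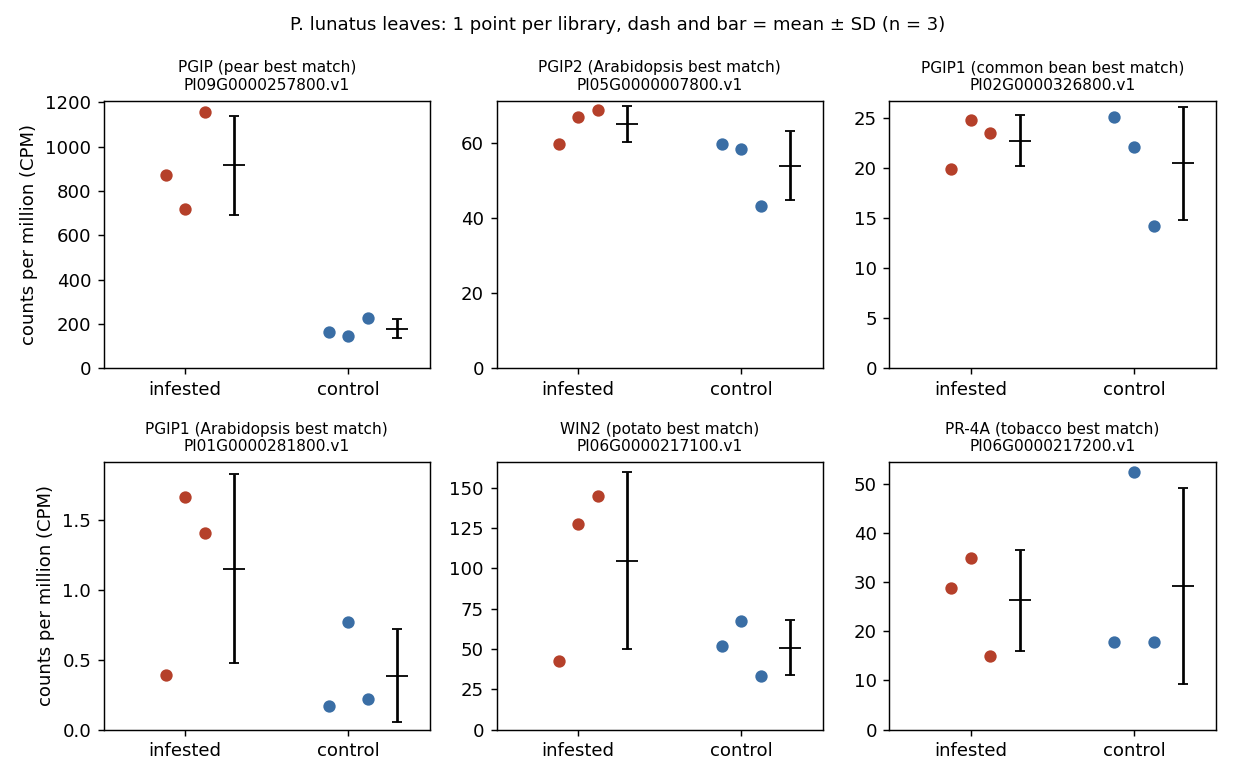
Transcript level in CPM (vertical axes, from 0) of the 6 tested P. lunatus genes named PGIP, WIN2 or PR-4A in infested and control leaves, 1 point per library, with the mean ± SD (n = 3). Only for the pear-matched PGIP gene do the groups stand apart (719 to 1157 CPM against 144 to 228 CPM); infested library 1 is the low point of the WIN2-named gene.

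Genes that share the leucine-rich repeat N-terminal domain with PGIPs, many of which are receptors rather than inhibitors, were mostly not called. In P. vulgaris the family held 95 genes, of which 17 had 0 counts in every library and 48 were tested. Of these, 0 were called by edgeR as set out above in either direction, against 0.976% of all tested genes. At that share, 0 calls among 48 genes do not set the family apart. The listed PGIP1 gene carries no domain family here and is not among the 48. At an unadjusted p below 0.05, which 10.5% of all tested genes reach, there were 8 higher and 3 lower. DESeq2 called 4 higher and 0 lower. Other settings of edgeR gave calls too, with 2 without a filter, 1 with library totals, 1 with a robust fit, and 1 without infested library 1, without infested library 3 or without control library 1. Their median log2 fold change was 0.03, against −0.003 for all tested genes. The summed level of the family was 939 to 1112 CPM in infested and 730 to 848 CPM in control libraries. The most counted member, PHAVU_005G007100g, chosen after its values were seen, made 299 ± 53.9 CPM of this in infested and 179 ± 29.0 CPM in control leaves (SD, n = 3 each; 0.74 ± 0.16, adjusted p = 0.0746 in edgeR's test).

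In P. lunatus the family held 98 genes, of which 25 had 0 counts and 42 were tested. Of these, 3 were called higher and 0 lower by edgeR, against 9.65% and 7.46% of all tested genes. At these shares, 3 calls among 42 genes do not set the family apart. The median log2 fold change was −0.007, against −0.01 for all tested genes. The pear-matched PGIP gene was the first of the 3. The others have no name in the table: Pl04G0000287100.v1 had 7.72 ± 1.15 CPM in infested and 2.13 ± 0.46 CPM in control leaves (1.85 ± 0.25, adjusted p = 0.00270), and Pl07G0000316000.v1 had 9.29 ± 0.94 CPM in infested and 4.60 ± 1.08 CPM in control leaves (1.01 ± 0.22, adjusted p = 0.0178; SD, n = 3 each). The call of Pl07G0000316000.v1 was lost when infested library 2 (adjusted p = 0.0503) or infested library 3 (0.0649) was left out. Without infested library 1 the family had 5 calls, and DESeq2 called 3 higher and 3 lower.

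**Figure D4:**
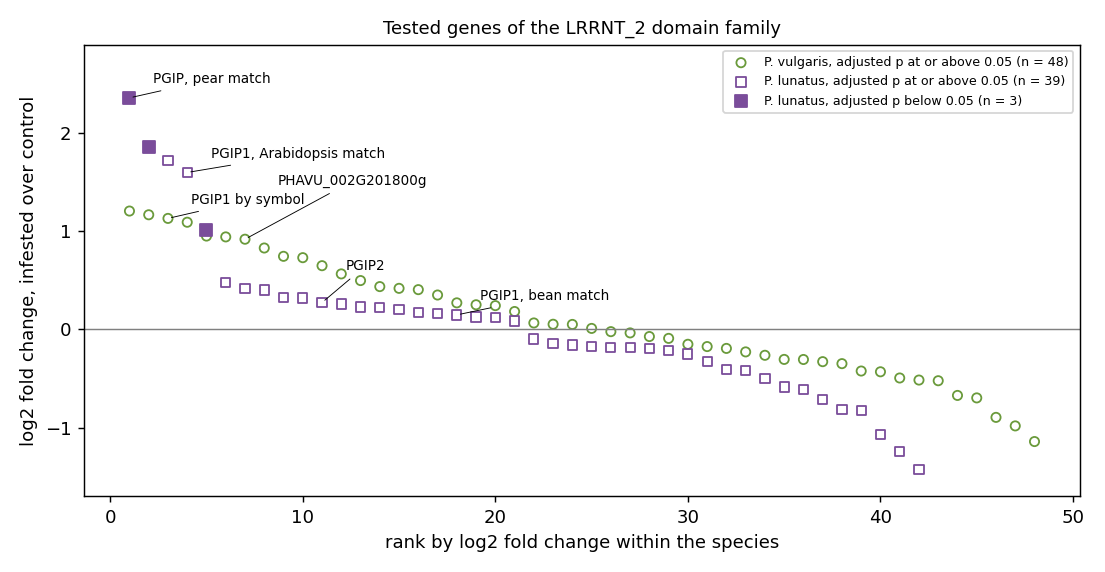
Log2 fold change of infested over control (vertical axis) of every tested LRRNT_2 gene, ranked within P. vulgaris (circles, 48 genes) and P. lunatus (squares, 42 genes); filled symbols have an adjusted p below 0.05. The 3 filled squares are P. lunatus genes at 2.36, 1.85 and 1.01, and 0 circles are filled. The called P. lunatus PGIP gene is among the squares. The listed PGIP1 gene of P. vulgaris carries no domain family and is not among the circles.

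Other pathogenesis-related families, the company in which hevein-like proteins are usually named, were counted in common bean beside the 0.935% of all tested genes called higher. With 1 call or none per family, these counts are too small to set a family apart. The table holds no Barwin or chitin-binding gene by name or family beside the listed hevein-like gene. Of 29 tested beta-glucanases of glycosyl hydrolase family 17, a family that includes enzymes cutting fungal and plant glucans, 1 rose and 0 fell, and the median log2 fold change was 0.10. The gene that rose, PHAVU_008G010600g, had 40.0 ± 2.74 CPM in infested and 24.3 ± 2.07 CPM in control leaves (SD, n = 3 each; 0.72 ± 0.10, adjusted p = 0.0126 in edgeR's test), and the call was lost when infested library 2 was left out (adjusted p = 0.0534). Of 15 tested thaumatin family genes, the PR-5 group, 1 rose and 0 fell, with a median of 0.16. PHAVU_002G155500g had 680 ± 29.7 CPM in infested and 336 ± 61.5 CPM in control leaves (1.02 ± 0.14, adjusted p = 0.00785), and the call was lost when control library 2 was left out (adjusted p = 0.0504).

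Of 6 tested P. vulgaris genes of the CAP/SCP family, which holds PR-1, edgeR called 0 at a median of 0.36, with 1 higher at an unadjusted p below 0.05, 0 called by DESeq2 and 1 called without control library 1. The tables' words matched 1 chitinase, 2 pectinesterases and 1 polygalacturonase in common bean. The chitinase and 1 pectinesterase were tested, and 0 were called by edgeR or DESeq2, or stood at an unadjusted p below 0.05. The polygalacturonase, of the class of enzyme that PGIPs bind, had 0 counts. Bet v 1, thionin or defensin, pectate lyase and pectin acetylesterase words matched 0 genes. Over the 12 lists together, 101 of 186 P. vulgaris genes were tested and 3 were called, all higher. The hevein-like gene, whose call the choice fixed, is among them. Without it 2 of 100 tested genes were called higher and 0 lower, against 0.935% and 0.0413% of all tested genes. These counts are too small to set the lists apart.

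The same words found more genes in lima bean, where more genes carry a name. Of 24 tested chitinases, which cut chitin, 13 rose and 0 fell, and the median log2 fold change was 0.77, against 9.65% of all tested genes called higher. The 3 with the smallest p were glycosyl hydrolase family 18 genes of equal length that lie near each other on chromosome 9. Whether they share reads was not measured. Pl09G0000334600.v1 had 76.7 ± 13.8 CPM in infested and 7.30 ± 2.12 CPM in control leaves (SD, n = 3 each; 3.40 ± 0.22, adjusted p = 0.000110 in edgeR's test). Pl09G0000335500.v1 rose by 3.02 ± 0.18 and Pl09G0000334900.v1 by 3.31 ± 0.24 on the same scale.

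Of 5 tested genes with a chitin-binding or Barwin domain, 2 rose and 0 fell in P. lunatus, at a median of 0.94. The share of all tested genes called higher was 9.65%. Both genes that rose are endochitinases with a best match in common bean. Pl09G0000001900.v1 had 1168 ± 223 CPM in infested and 608 ± 130 CPM in control leaves (0.94 ± 0.20, adjusted p = 0.0174), and the call was lost when infested library 2 (adjusted p = 0.0615), infested library 3 (0.0734) or control library 3 (0.0520) was left out. Pl05G0000269800.v1 had 6.75 ± 1.55 CPM in infested and 2.58 ± 1.32 CPM in control leaves (1.38 ± 0.37, adjusted p = 0.0368; SD, n = 3 each). Its call ended without any 1 of 5 libraries, all but control library 2, at an adjusted p of up to 0.0946. These endochitinases also belong to the chitinase list.

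The counts of the next families are to be read against the 9.65% of all tested genes called higher and the 7.46% called lower. Among the beta-glucanases of lima bean, 5 of 32 rose and 0 fell at a median of −0.04, led by Pl05G0000232700.v1 with 71.8 ± 15.7 CPM in infested and 6.88 ± 2.82 CPM in control leaves (3.39 ± 0.30, adjusted p = 0.000312 in edgeR's test). Without any 1 of the infested libraries or control library 1 the count was 3. Next were Pl08G0000013100.v1 at 1.28 ± 0.19 (adjusted p = 0.00427) and Pl08G0000415800.v1 at 1.49 ± 0.26 (adjusted p = 0.00774). Of 13 thaumatin family genes, 1 rose (Pl02G0000079600.v1, 0.80 ± 0.19, adjusted p = 0.0240) and 0 fell, and its call ended without infested library 2, infested library 3 or control library 2 (adjusted p of up to 0.0886), while 2 were called without infested library 1. Bet v 1 genes, the PR-10 group, went both ways, with 2 of 21 higher and 3 lower at a median of −0.27. The thaumatin and Bet v 1 counts are too small to set either family apart from all tested genes. The STH-2-named Pl09G0000349300.v1 rose by 1.79 ± 0.20 (adjusted p = 0.000915) and the PR10-named Pl09G0000349800.v1 by 0.79 ± 0.13 (adjusted p = 0.00688), whereas Pl11G0000365800.v1 fell to 114 ± 25.8 CPM in infested leaves, against 281 ± 57.6 CPM in control leaves (SD, n = 3 each; −1.30 ± 0.21, adjusted p = 0.00505). Of 3 tested CAP/SCP genes and 3 tested thionin or defensin genes, edgeR and DESeq2 called 0, and 0 had an unadjusted p below 0.05, which 32.5% of all tested genes reach.

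Enzymes that act on pectin were counted in the same way in lima bean, each list to be read against the 9.65% of all tested genes called higher, and differences between the lists were not tested. Of 24 tested polygalacturonases of P. lunatus, 1 rose and 0 fell at a median of −0.10. That gene, Pl08G0000333800.v1, had 31.8 ± 5.40 CPM in infested and 17.4 ± 5.76 CPM in control leaves (SD, n = 3 each; 0.87 ± 0.23, adjusted p = 0.0360 in edgeR's test), and its call ended without any 1 of 5 libraries, all but control library 3, at an adjusted p of up to 0.111, while 2 polygalacturonases were called without control library 3. Of 40 pectinesterases and their inhibitors, 11 rose and 0 fell at a median of 0.21, a count of 4 to 6 without infested library 2 or 3 or control library 2 or 3. The pectinesterase Pl02G0000006300.v1 had 4835 ± 729 CPM in infested and 1873 ± 463 CPM in control leaves (1.37 ± 0.22, adjusted p = 0.00543), and Pl10G0000315300.v1 and Pl02G0000006400.v1 rose by 1.72 ± 0.18 and 1.12 ± 0.14.

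Of 10 pectin acetylesterases, which remove acetyl groups from pectin, 3 rose and 0 fell at a median of 0.39. Pl02G0000063200.v1 had 59.7 ± 4.85 CPM in infested and 13.6 ± 3.07 CPM in control leaves (SD, n = 3 each), Pl03G0000193700.v1 rose by 2.37 ± 0.32 (adjusted p = 0.00259) and Pl08G0000133600.v1 by 1.14 ± 0.22 (adjusted p = 0.0115 in edgeR's test, 0.0577 without infested library 3). Of 13 pectate lyases, edgeR called 0, with 0 at an unadjusted p below 0.05 1 called higher by DESeq2 and 1 called without infested library 1. Over the 12 lists together, 39 of 223 tested P. lunatus genes were called higher and 3 lower, against 9.65% and 7.46% of all tested genes. Without infested library 3 a total of 25 were called in either direction.

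The P. vulgaris genes most like the listed genes in pattern were found by Pearson's r of log2 CPM over the 6 libraries, among 8410 tested genes with a name or domain family. Because 3 of the 6 libraries are infested, a high r mainly reports a like difference between the groups. The 5 nearest to PGIP1 (r of 0.994 to 0.997) were PHAVU_002G232800g of the 2-oxoglutarate-dependent oxygenase family, PHAVU_003G1408001g with a helix-loop-helix domain, PHAVU_002G002000g of the Zim family, which includes the JAZ repressors of jasmonate signalling, PHAVU_003G011600g of the thiolase family and PHAVU_001G017800g, a cytochrome P450.

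Their sizes of difference varied widely. PHAVU_002G232800g had 4.58, 3.47 and 3.08 CPM in infested libraries and 0 in every control library. PHAVU_003G1408001g had 11.2 ± 1.19 CPM in infested and 2.07 ± 0.21 CPM in control leaves (log2 fold change 2.44), close to the 2.45 of PGIP1. PHAVU_002G002000g had 48.6 ± 4.11 CPM in infested and 14.2 ± 0.58 CPM in control leaves (1.78), and PHAVU_003G011600g had 47.2 ± 2.13 CPM in infested and 16.4 ± 1.56 CPM in control leaves (1.53; SD, n = 3 each). The P450 PHAVU_001G017800g had 113 ± 3.43 CPM in infested and 70.2 ± 3.13 CPM in control leaves (0.68).

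For the hevein-like gene the 5 nearest (r of 0.989 to 0.994) share its higher level in control library 1. That level is part of the pattern they were chosen by, so sharing it is not a separate result. They were PHAVU_004G069000g of the NUDIX family, PHAVU_002G317000g with a Myb DNA-binding domain, the protein kinase gene PHAVU_011G003100g, PHAVU_003G256600g with an AAA ATPase domain and PHAVU_007G069600g of the cytochrome b561 family. The Myb-domain gene had 19.3, 13.3 and 17.4 CPM in infested libraries, against 5.58, 1.55 and 2.00 CPM in control libraries, so control library 1 was the highest control here too. The cytochrome b561 gene had 238, 215 and 222 CPM in infested libraries, against 159, 139 and 138 CPM in control libraries. The remaining genes were low, at means of 1.28, 3.33 and 5.33 CPM in infested and 0.0873, 1.24 and 1.29 CPM in control leaves for the NUDIX, kinase and AAA genes. The NUDIX gene had only 4, 0 and 1 counts in control libraries 1, 2 and 3. The sets of 5 genes nearest to PGIP1 and nearest to the hevein-like gene had 0 genes in common. With only 5 of 8410 genes taken for each, this does not show that the listed genes differ in pattern.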

How the data were processed

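RNA-seq libraries of infested and control leaves (3 each) of P. vulgaris and P. lunatus were used. The authors deposited raw read counts per gene, with gene lengths, in 1 table per species, and 0 columns could not be mapped to a library. Per the submitters' processing notes the tools were HISAT2, featureCounts and DESeq2, with no versions. Build, annotation release and use of strand: not given in the sources used here. No library looked like a copy of another.

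Each species was fitted alone with edgeR 4.0.16 in R 4.3.3 (TMM scaling, filterByExpr, quasi-likelihood test, Benjamini-Hochberg adjustment over all tested genes, called below 0.05). The SE is the log2 fold change over the root of F, and log2 CPM used a prior count of 2. The fit was tested on simulated counts. Gene IDs matched the reference table for 0 genes, so names are those of the deposited tables.

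Named are all genes of the listed words, neighbours within 50 kb (with at least 10 counts; where many, by range), the 3 called genes of smallest p per list, and the 5 genes of highest r with each listed gene. The members and lists were chosen with earlier results of these data known, and other genes are said to be chosen after their values were seen. Alternatives were median-ratio, upper-quartile and total-count scaling, no filter, a filter of 1 CPM in 3 libraries, DESeq2 1.42.0, a robust fit, a replicate block and leaving out each library.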

Additional observations from a re-analysis of the deposited data

How the results depend on the processing

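The pear-matched P. lunatus PGIP gene was called higher under all 14 alternatives. The listed P. vulgaris genes were chosen in their own contrast, so the sign of their fold changes under these alternatives carries no support. The counts of called genes moved more, and the cause was not tested. In P. vulgaris 189 genes were called, 457 by DESeq2, 539 with a replicate block and 92 to 172 with a library left out (92 and 100 leaving out infested library 1 and 2, 100 and 122 leaving out control library 2 and 3). In P. lunatus 3170 were called, 1617 with a replicate block and 1317 to 3204 with a library left out (1485 and 1317 leaving out infested library 2 and 3, 2066 leaving out control library 3). Leaving out a library gave 1 to 2 called genes among the P. lunatus genes matched by name (2 without infested library 1), 2 to 5 in the P. vulgaris lists (5 without control library 1), where 3 were called, and 25 to 44 in the P. lunatus lists (25 without infested library 3), where 42 were called. The P. vulgaris lists held 5 called genes without a filter, 7 by DESeq2 and 8 with the block, under which the chromosome 2 gene PHAVU_002G201800g was called too (adjusted p = 0.0209) as 1 of 3 called LRRNT_2 genes.

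Libraries of the same number were not taken as pairs. The correlation of their deviations from the group means was 0.14, 0.085 and 0.21 in P. vulgaris, where every library correlated best with its own number, and −0.22, 0.049 and −0.18 in P. lunatus. The gene with the symbol PGIP1 rests on 8 to 16 counts per control library, which limits the precision of its values.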
